A study of Mus musculus with 9 samples.

Results

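The calcium pumps are the enzymes that lift calcium out of the cytosol, and 8 of the genes that encode them are described here across the skin libraries of a bleomycin scleroderma model. They were taken by gene name from a table of 55382 genes, and the family was chosen on measured levels in these same libraries, so its values are a description and carry no independent test. The 8 genes are Atp2b1 to Atp2b4 of the plasma membrane, Atp2a2 and Atp2a3 of the endoplasmic reticulum (ER), and Atp2c1 and Atp2c2 of the Golgi.

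The data came from back skin of female C57BL/6 mice in 3 groups of 3 poly(A) RNA libraries. EXO skin came from mice that had 100 µL of bleomycin at 1 mg/mL injected under the shaved back daily for 28 days and then 15 µg of exosomes from bone marrow mesenchymal stem cells, with 7 days of treatment in the design text (the methods give a later kill). BLM skin had the same bleomycin without exosomes (labelled as treatment none, PBS in the methods), and NORMAL skin came from mice given PBS only. Bleomycin damages DNA and its injection under the skin is a chemical model of fibrosis, and it was shared by the EXO and BLM groups. Whether the 3 libraries of a group are 3 mice is not stated, so intervals and p-values measure only the spread between libraries. Libraries are named by group and title number, and the library of each group whose title has no number is called 3.

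Values are FPKM, fragments scaled by transcript length and by the mapped fragments of the library, so levels of different genes may be compared within a library. All 9 libraries held epidermal transcripts, with a summed level of 5 basal keratinocyte markers (Krt5, Krt14, Krt15, Col17a1 and Itgb4, all detected) of 6611 to 11288 FPKM in EXO, 1046 to 3953 in BLM and 1047 to 8406 in NORMAL. They also held muscle, with 10 fast muscle markers summing to 6620 to 30551 FPKM in EXO, 5275 to 8883 in BLM and 7448 to 48698 in NORMAL. Mitochondrially encoded transcripts took 18.7 to 34.4% of the FPKM in EXO, 27.8 to 50.9% in BLM and 19.1 to 22.8% in NORMAL. NORMAL3 stood apart from NORMAL1 and NORMAL2, with 191 FPKM of hair matrix and shaft markers where the other 2 had 7.43 and 3.54. Its fast muscle markers summed to 7448 FPKM, where NORMAL1 and NORMAL2 had 48698 and 41828. The pump values that turned on NORMAL3 are also given without it. In bulk skin, fewer cells of a type and less RNA per cell cannot be told apart.

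Calcium is kept low in the cytosol and high outside the cell and inside the ER and Golgi, and release or entry of calcium is a signal that the pumps end. All of the pumps belong to the P-type ATPases, which take a phosphate from ATP onto an aspartate of the enzyme in each transport cycle. PMCA pumps (Atp2b genes) expel calcium across the plasma membrane and are stimulated by calmodulin, SERCA pumps (Atp2a genes) fill the ER, and SPCA pumps (Atp2c genes) fill the Golgi with calcium and manganese. In human skin, loss of 1 copy of ATP2A2 causes Darier disease and of ATP2C1 Hailey-Hailey disease, both of which loosen the contacts between keratinocytes.

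The stretch of coding sequence around the phosphorylated aspartate shows what the family shares, and is printed for Atp2b4, for the other PMCA gene that passed the filter and for a Golgi pump. The sequences are 45 bases of the coding strand of the mouse reference GRCm38, read from the GENCODE M21 transcript with the longest coding sequence, with capitals marking the 15 bases that encode aspartate, lysine, threonine, glycine and threonine.
Atp2b4: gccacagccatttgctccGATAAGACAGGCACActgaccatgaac
Atp2b1: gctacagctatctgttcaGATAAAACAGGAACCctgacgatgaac
Atp2c1: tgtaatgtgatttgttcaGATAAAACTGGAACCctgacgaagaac
The encoded run of 5 residues occurred once in each of the 8 proteins, with its aspartate at position 466 of 1205 residues in Atp2b4, 475 of 1220 in Atp2b1 and 383 of 952 in Atp2c1. Over the whole protein, the PMCA pumps were 74.3 to 84.5% identical to each other over 6 pairs, Atp2a2 and Atp2a3 76.4% and Atp2c1 and Atp2c2 63.2%. Between types the identity was 31.2 to 38.0%. The transcripts shared few identical stretches of 50 bases, with 0 to 7 per gene found in another of the 8 pumps or in Atp2a1, a further SERCA gene. Atp2b4 shared none, and this count does not measure how alike the sequences are.

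Atp2b4, which encodes the pump PMCA4, was the member whose level set EXO skin apart. It had 9.55, 15.05 and 24.0 FPKM in EXO1, EXO2 and EXO3, against 1.01, 0.46 and 1.13 FPKM in BLM1, BLM2 and BLM3 and 0.51, 0.31 and 2.90 FPKM in NORMAL1, NORMAL2 and NORMAL3. Every EXO library was above every other library, and BLM and NORMAL overlapped. The lowest EXO value was 8.45 times the highest BLM value and 3.29 times the highest NORMAL value, which was that of NORMAL3. The group means were 16.2 ± 7.29 FPKM in EXO, 0.867 ± 0.357 in BLM and 1.24 ± 1.44 in NORMAL (SD, n = 3 each).

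On the scale of log2(FPKM + 1), which understates the change of low genes, Atp2b4 was higher in EXO than in BLM by 3.13 (95% interval 2.05 to 4.22) and higher in EXO than in NORMAL by 3.03 (1.95 to 4.12). BLM against NORMAL gave -0.10 (-1.18 to 0.98), and 0.39 without NORMAL3, so that its sign turned on this library. In the limma fit across all 14254 genes tested, with Benjamini-Hochberg adjustment, the adjusted p of Atp2b4 was 0.114 for EXO against BLM, 0.335 for EXO against NORMAL and 0.992 for BLM against NORMAL. By this fit 0 of the 6 members tested passed the threshold of 0.05 in any comparison, 1 member (Atp2b4) had an unadjusted p under 0.05 in each EXO comparison, and none had one in BLM against NORMAL. The share of all genes called was 0.0140% for EXO against BLM, 0% for EXO against NORMAL and 0.0140% for BLM against NORMAL. An unadjusted p under 0.05 in this limma fit was reached by 6.84% of all genes for EXO against BLM. That share was 2.33% (332 genes) for EXO against NORMAL and 7.37% for BLM against NORMAL. With the library number as a block in limma, Atp2b4 passed in both EXO comparisons, with adjusted p = 0.0239 against BLM and 0.0476 against NORMAL, and no other member did. That fit called 0.0772% of all genes for EXO against BLM, 0.0210% for EXO against NORMAL and 0.421% for BLM against NORMAL. Because the family was chosen on these values, nothing further is read from these p-values.

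Among all genes tested, Atp2b4 ranked 2 by the size of the increase in both EXO comparisons. The family was chosen on these same levels, so this rank is a description and lends the difference no support. The order of groups seen for Atp2b4 was common in itself, since 11.4% of all genes had every EXO library above every BLM library and 4.58% had every EXO library above every NORMAL library. Atp2b4 was the only 1 of the 6 tested members with either pattern, and 10.4% of all genes, but no tested member, had BLM and NORMAL values that did not overlap. The 2 EXO comparisons share the EXO libraries and are not independent of each other. Atp2b4 did not need EXO to pass the filter on low values, as 2 BLM libraries and 1 NORMAL library also reached 1 FPKM.

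**Figure D1:**
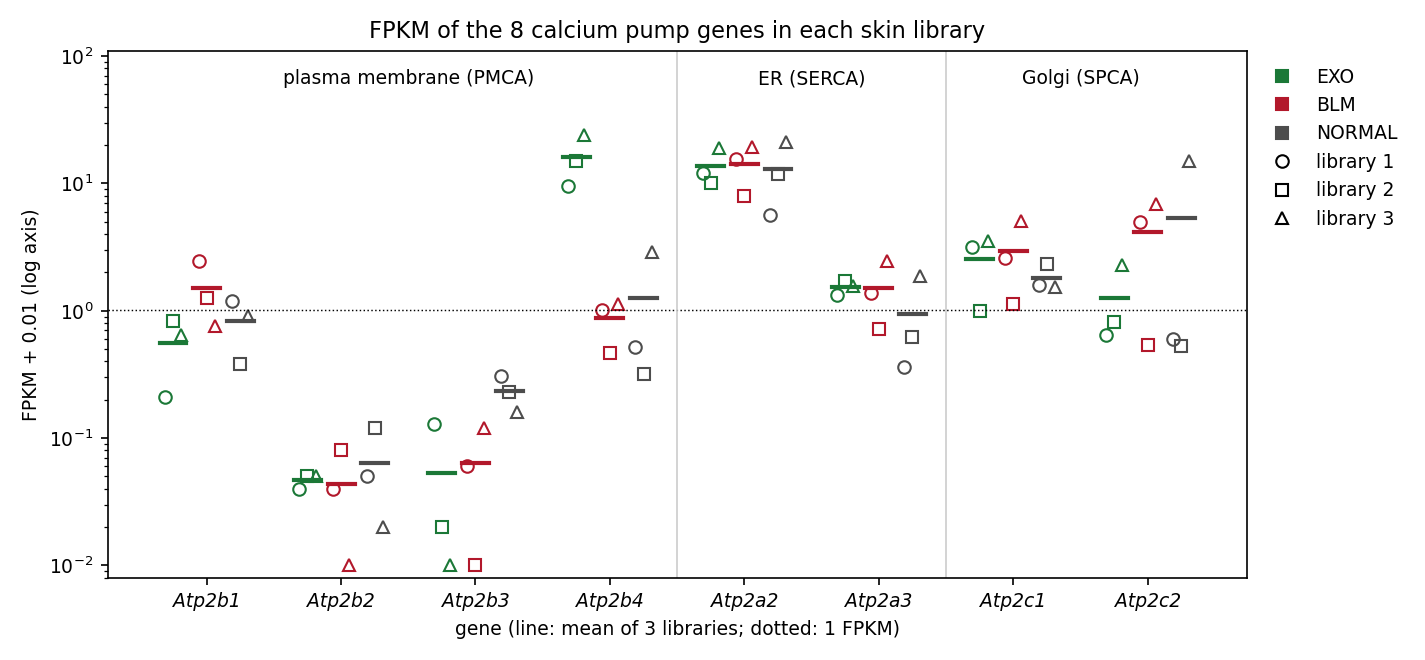
FPKM + 0.01 (log axis) of the 8 calcium pump genes in each library, with EXO in green, BLM in red and NORMAL in grey, a symbol per library number and a line at the mean of 3 libraries. The 3 EXO libraries of Atp2b4 lie between 9.55 and 24.0 FPKM, above its 6 other libraries at 0.31 to 2.90 FPKM, while the EXO, BLM and NORMAL libraries of Atp2a2, Atp2a3, Atp2c1 and Atp2c2 overlap.

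The size of the Atp2b4 difference held up under the processing choices better than its adjusted p, in part by construction. Filters, the trended prior, the block, the 6 libraries alone and leaving out a third-group library cannot change a difference of group means. Over 20 alternatives its log2 difference was 2.82 to 4.06 for EXO against BLM and 2.72 to 4.07 for EXO against NORMAL. With NORMAL3 left out, limma with Benjamini-Hochberg adjustment gave adjusted p = 0.00448 for EXO against BLM, where the range over the alternatives was 0.0039 to 0.767, and 0.071 for EXO against NORMAL, where it was 0.0476 to 1.0. In the first comparison 5 of 20 alternatives were under 0.05, namely quantile normalization (0.0167), median-ratio scaling (0.0278), the 6 EXO and BLM libraries alone (0.0039), the block and the fit without NORMAL3, and in the second only the block was.

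**Figure D2:**
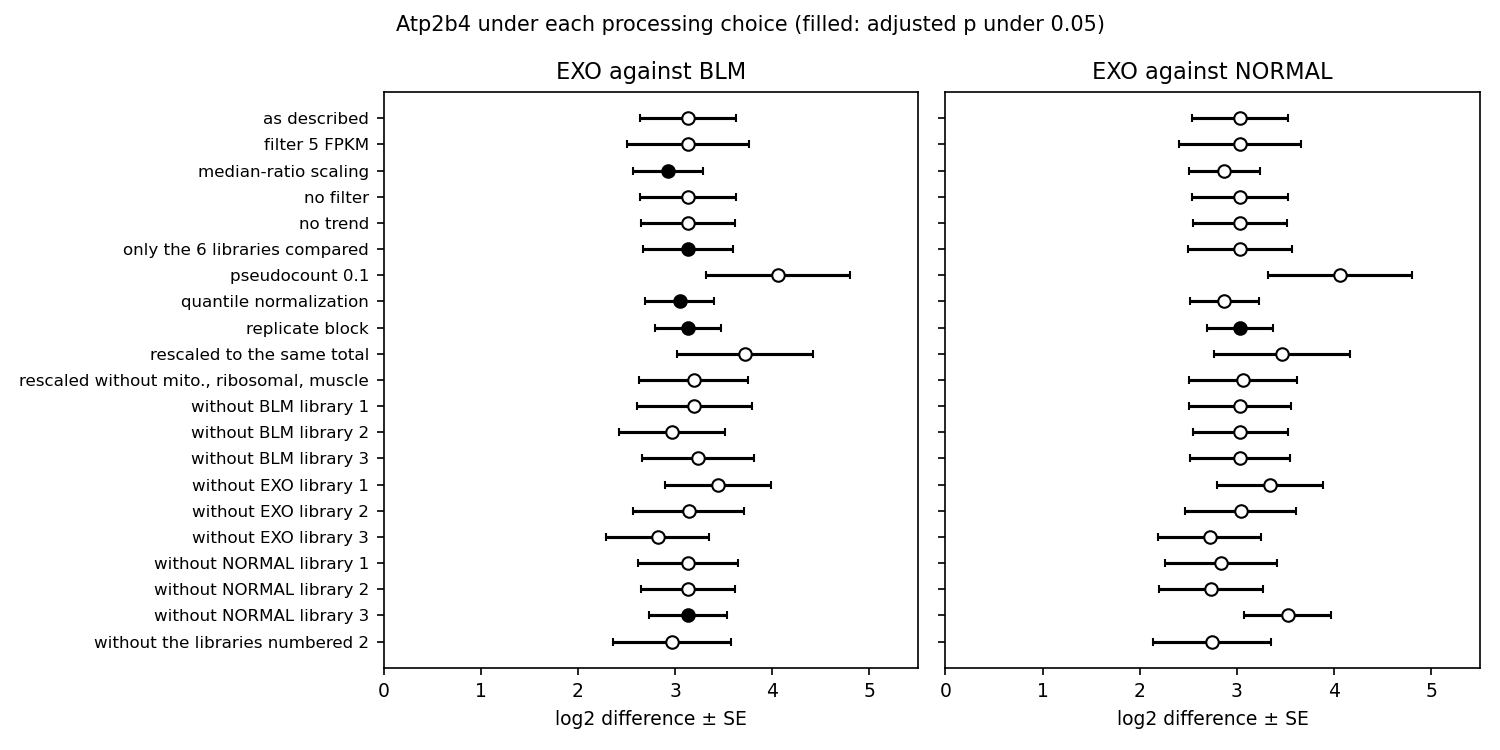
Log2 difference of Atp2b4 ± SE for EXO against BLM (left) and EXO against NORMAL (right) under the fit as described and each of 20 alternatives, filled where the adjusted p was under 0.05. All points lie at 2.72 or above, and 5 of 20 alternatives on the left and 1 on the right are filled.

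Atp2b4 spans chr1:133699457-133801041 on the minus strand of GRCm38, with 8 annotated transcripts. The authors' alignment used mm9, so these coordinates come from matching the gene identifiers and not from their files. The 2 genes annotated inside it, Mir6903 and Gm37368, reached at most 0.02 and 0.18 FPKM. Of the 12338 stretches of 50 bases in its transcripts, 120 (0.973%) also occurred in another gene.

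The markers of the skin compartments moved in part with Atp2b4. Basal keratinocyte markers were higher in each EXO library than in each BLM library, and NORMAL3, the highest NORMAL library for Atp2b4, also had the highest NORMAL sum of these markers, 8406 FPKM. Per 1000 FPKM of these markers, Atp2b4 had 1.45, 2.18 and 2.13 in EXO1 to EXO3, against 0.287, 0.440 and 0.286 in the BLM libraries and 0.125, 0.296 and 0.345 in the NORMAL libraries. The EXO libraries were above the others on this scale too, which does not measure cell number. Hair matrix and shaft markers (6 of 7 found, all reaching 1 FPKM) summed to 7.97 to 17.2 FPKM in EXO, 122 to 685 in BLM and 3.54 to 191 in NORMAL. The parts of keratinocytes and of hair matrix cells in the Atp2b4 difference were not tested.

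The other PMCA genes were low in skin. Atp2b1, which encodes the widely expressed pump PMCA1, had 0.20, 0.82 and 0.63 FPKM in EXO1 to EXO3, against 2.46, 1.26 and 0.75 FPKM in BLM1 to BLM3 and 1.18, 0.37 and 0.90 FPKM in NORMAL1 to NORMAL3. The EXO and BLM values overlapped only through EXO2 and BLM3, and the log2 difference was -0.65 (95% interval -1.42 to 0.13). Atp2b2, known for calcium export in the hair cells of the inner ear, had 0 to 0.11 FPKM in all 9 libraries. Atp2b3, a pump mainly of the nervous system, had 0 to 0.12 FPKM in EXO, 0 to 0.11 in BLM and 0.15 to 0.30 in NORMAL. Both were under the filter of 1 FPKM in 3 libraries and were not tested, so 6 of the 8 members entered the fits. Of 5 neuron markers, Snap25, Rbfox3, Syt1 and Nefl stayed under 1 FPKM in all libraries, while Tubb3 had 0.54 to 0.72 FPKM in EXO, 1.34 to 4.83 in BLM and 0.29 to 1.1 in NORMAL.

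The make-up of the PMCA transcripts therefore differed between the groups in these libraries. Atp2b4 took 96.5, 94.5 and 97.3% of the summed PMCA FPKM in EXO1 to EXO3, against 28.5, 25.7 and 56.8% in the BLM libraries and 25.1, 30.7 and 73.2% in the NORMAL libraries. Atp2b1 was the larger part in BLM1, BLM2, NORMAL1 and NORMAL2 and took 2.02 to 5.15% in EXO, 37.7 to 70.4% in BLM and 22.7 to 58.1% in NORMAL. A share within a library does not depend on how that library was scaled, and the EXO shares did not overlap those of BLM or NORMAL for either gene. Summed over the 4 genes, PMCA transcripts came to 9.90, 15.9 and 24.7 FPKM in EXO, against 3.55, 1.79 and 1.99 FPKM in BLM and 2.03, 1.01 and 3.96 FPKM in NORMAL. Most of the difference between the sums lay in Atp2b4, since Atp2b1 was not higher in EXO.

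**Figure D3:**
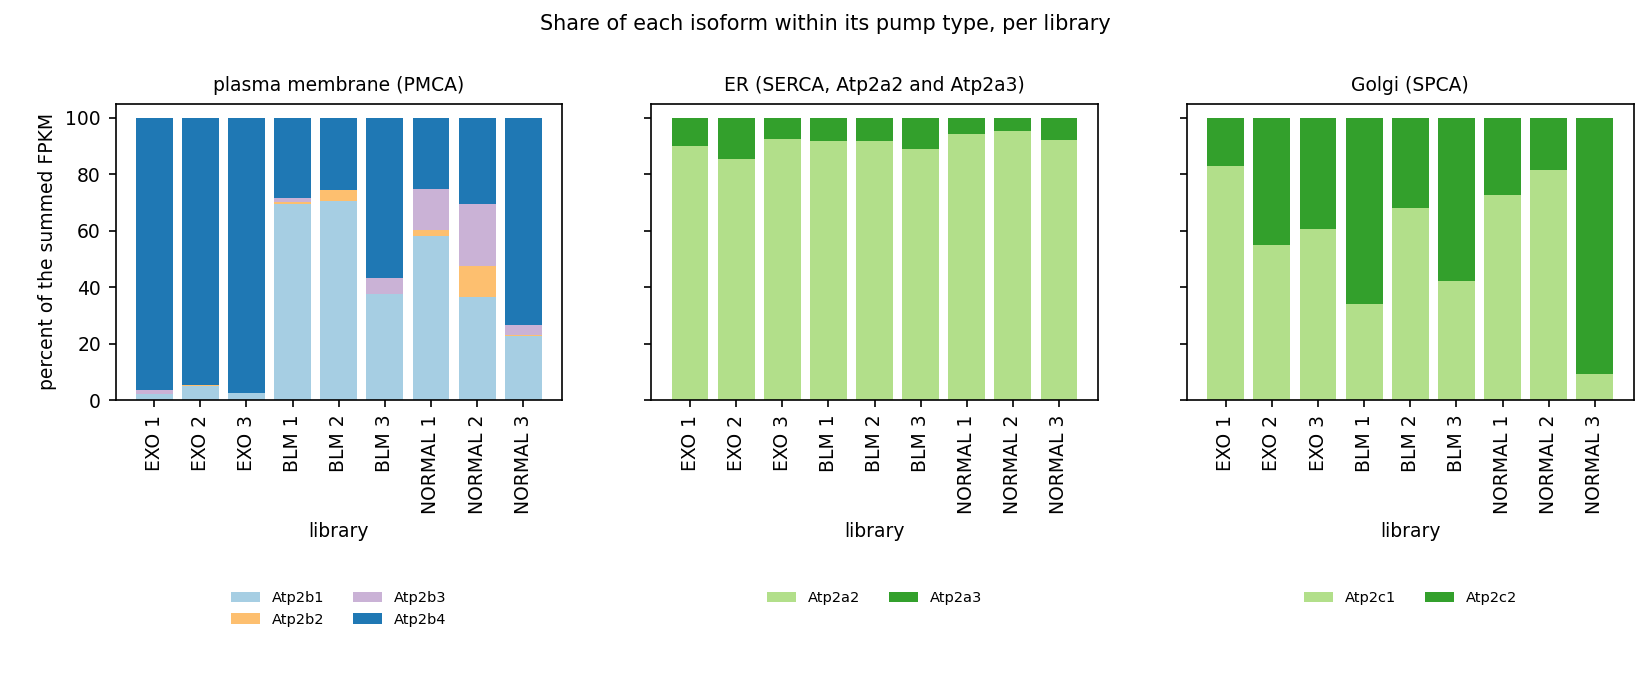
Percent of the summed FPKM of each pump type taken by each gene, stacked to 100%, for EXO, BLM and NORMAL libraries from left to right. Atp2b4 (dark blue) fills 94.5 to 97.3% of the PMCA bars in EXO and 25.1 to 73.2% in the other libraries, Atp2a2 fills 85.5 to 95.1% of every SERCA bar, and the Golgi shares range widely within groups.

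The ER pump Atp2a2, the housekeeping SERCA2 of most cells and the slow muscle and heart form, was the most abundant member over all 9 libraries at a mean of 13.6 FPKM. It had 12.1, 10.1 and 18.9 FPKM in EXO1 to EXO3, against 15.4, 7.89 and 19.3 FPKM in BLM1 to BLM3 and 5.59, 11.8 and 21.2 FPKM in NORMAL1 to NORMAL3. The 3 groups overlapped fully, and the library numbered 3 was the highest of each group. The log2 difference was -0.01 (95% interval -1.14 to 1.11) for EXO against BLM, 0.21 (-0.92 to 1.33) for EXO against NORMAL and 0.22 (-0.91 to 1.34) for BLM against NORMAL. Without NORMAL3 the last 2 were 0.63 and 0.64, still inside those intervals.

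Against this ER pump, Atp2b4 stood at 0.787, 1.50 and 1.27 times the FPKM of Atp2a2 in EXO1 to EXO3. In BLM the ratio was 0.0656, 0.0583 and 0.0586 and in NORMAL 0.0912, 0.0262 and 0.137. The ratio was thus near or above 1 in the EXO libraries and at most 0.137 in the 6 others.

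Atp2a3 encodes SERCA3, a pump of blood cells, endothelium and some epithelia. It had 1.33, 1.70 and 1.56 FPKM in EXO1 to EXO3, against 1.37, 0.71 and 2.45 FPKM in BLM1 to BLM3 and 0.35, 0.61 and 1.85 FPKM in NORMAL1 to NORMAL3. The EXO values lay close together inside the range of BLM, and NORMAL3 was above all EXO libraries. Atp2a3 took 7.64 to 14.5% of the FPKM of these 2 ER pumps in EXO, 8.17 to 11.3% in BLM and 4.91 to 8.02% in NORMAL.

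Most SERCA transcripts in these libraries belonged to neither, but to Atp2a1, the fast muscle SERCA1, which is not among the 8 genes. It had 290 to 2400 FPKM in EXO, 330 to 631 in BLM and 596 to 4325 in NORMAL, and took 94.4 to 99.9% of the SERCA FPKM. The share of Atp2a2 in all SERCA transcripts, 0.503 to 3.33% in EXO, 2.33 to 4.99% in BLM and 0.129 to 3.43% in NORMAL, was thus set mainly by the level of this muscle gene. Whether muscle fibres added to the Atp2a2 level itself was not tested.

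The Golgi pump Atp2c1, or SPCA1, was present in all libraries. It had 3.13, 0.98 and 3.5 FPKM in EXO1 to EXO3, against 2.57, 1.12 and 5.06 FPKM in BLM1 to BLM3 and 1.57, 2.30 and 1.54 FPKM in NORMAL1 to NORMAL3. The groups overlapped, and in EXO and BLM the library numbered 2 was the lowest. Aste1, annotated on the opposite strand over part of Atp2c1, had 0.37 to 2.45 FPKM, and since the strand setting of the counting was not given in the sources used here, reads of these 2 genes may be partly exchanged.

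Atp2c2, or SPCA2, known from secretory epithelia such as the mammary gland, had the largest spread within groups of the 6 tested members (SE of its log2 differences 0.88, against 0.35 to 0.51 for the others). It had 0.64, 0.81 and 2.28 FPKM in EXO1 to EXO3, against 4.96, 0.53 and 6.91 FPKM in BLM1 to BLM3 and 0.59, 0.52 and 14.9 FPKM in NORMAL1 to NORMAL3. NORMAL3 alone set the NORMAL mean of 5.34 ± 8.29 FPKM (SD, n = 3). The log2 difference of BLM against NORMAL was 0.30 (95% interval -1.64 to 2.24) with NORMAL3 and 1.42 without it, and that of EXO against NORMAL was -0.66 (-2.60 to 1.28) with it and 0.46 without it, so the sign of the second turned on this library. The summed hair matrix and shaft markers were also highest in BLM1, BLM3 and NORMAL3, at 596, 685 and 191 FPKM, and the part of these cells in the Atp2c2 level was not tested. Atp2c2 took 17.0 to 45.3% of the SPCA FPKM in EXO, 32.1 to 65.9% in BLM and 18.4 to 90.6% in NORMAL.

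**Figure D4:**
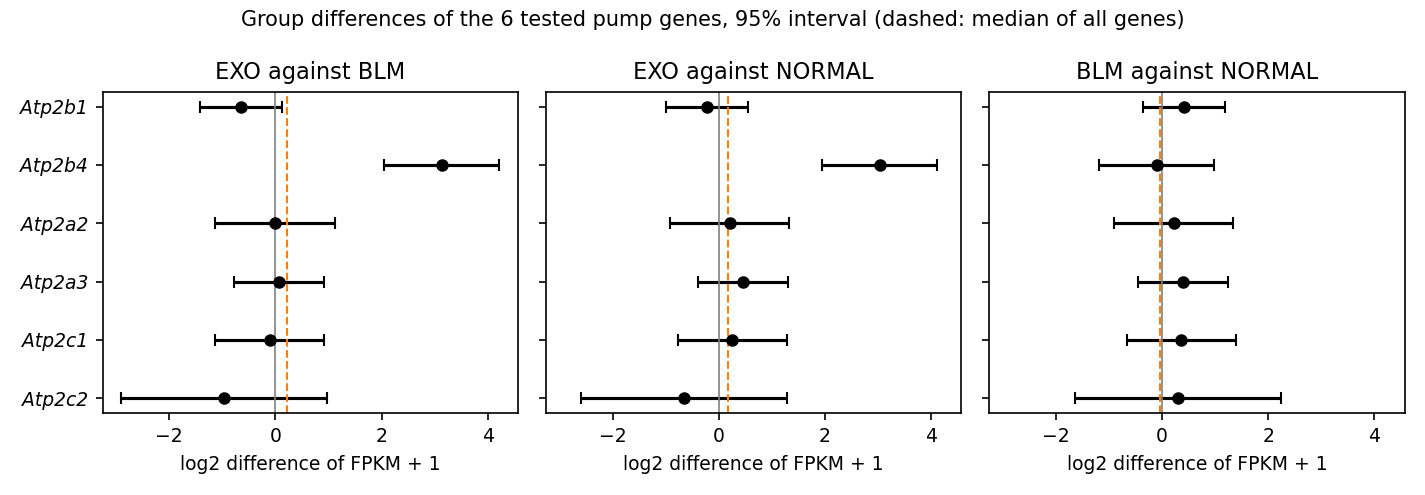
Log2 difference of FPKM + 1 with its 95% interval for the 6 tested members in the 3 comparisons, with the median of all tested genes dashed. The intervals of Atp2b4 run over 2.05 to 4.22 and 1.95 to 4.12 in the EXO comparisons, and every other interval shown includes 0.

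Apart from Atp2b4, the 5 tested members had log2 differences of -0.96 to 0.07 for EXO against BLM, -0.66 to 0.46 for EXO against NORMAL and 0.22 to 0.42 for BLM against NORMAL. Their adjusted p by limma with Benjamini-Hochberg adjustment was 0.774 to 0.999, 0.997 and 0.889 to 0.987 in the same order of comparisons. The median over the 6 tested members was -0.06, 0.23 and 0.33, beside medians over all 14254 genes of 0.22, 0.17 and -0.03. Rescaling every library to the same total moved the medians over all genes to 0.49, 0.22 and -0.25. None of these 5 members differed between groups beyond the spread between libraries by this test.

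Ordered by mean level in EXO, Atp2b4 (16.2 FPKM) and Atp2a2 (13.7) came first and overlapped each other, followed by Atp2c1 (2.54), Atp2a3 (1.53), Atp2c2 (1.24) and Atp2b1 (0.55), of which each overlapped the next. In BLM, Atp2a2 (14.2) stood above Atp2c2 (4.13), Atp2c1 (2.92), Atp2a3 (1.51), Atp2b1 (1.49) and Atp2b4 (0.867), and in each step after the first the neighbours overlapped. In NORMAL the order was Atp2a2 (12.9), Atp2c2 (5.34), Atp2c1 (1.80), Atp2b4 (1.24), Atp2a3 (0.937) and Atp2b1 (0.817), with every neighbour overlapping. Atp2b3 and Atp2b2 were the lowest in all 3 groups. Atp2b4 thus held the first place in EXO, the sixth in BLM and the fourth in NORMAL. The NORMAL order rested on NORMAL3, without which Atp2a2 (8.71 FPKM) was followed by Atp2c1 (1.94), Atp2b1 (0.775), Atp2c2 (0.555), Atp2a3 (0.48) and, in the sixth place, Atp2b4 (0.41). Of the summed FPKM of all 8 genes it made up 35.2 to 51.1% in EXO, 3.17 to 3.82% in BLM and 1.91 to 6.67% in NORMAL.

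The genes whose pattern over the 9 libraries was most like that of a pump were named by the 3 highest Pearson correlations of log2(FPKM + 1), as a description. All 9 points share their groups and scaling, so these values say nothing of shared control. For Atp2b4 they were Slc4a8 (r = 0.984, Spearman rho = 0.933), a bicarbonate transporter, Spink5 (r = 0.975, rho = 0.967), an inhibitor of epidermal proteases, and Bmp2 (r = 0.965, rho = 0.917), a secreted growth factor. Spink5 had 72.6, 64.5 and 91.3 FPKM in EXO1 to EXO3, against 21.6, 16.4 and 27.4 FPKM in BLM1 to BLM3 and 21.5, 16.4 and 41.2 FPKM in NORMAL1 to NORMAL3. Bmp2 had 12.1, 14.7 and 17.9 FPKM in EXO, against 5.11, 3.07 and 4.29 in BLM and 5.62, 3.87 and 8.75 in NORMAL. Slc4a8 was lower, at 1.40 to 3.05 FPKM in EXO, 0.16 to 0.34 in BLM and 0.06 to 0.84 in NORMAL. In all 3 genes, as in Atp2b4, every EXO library was above the rest and NORMAL3 was the highest of the others.

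**Figure D5:**
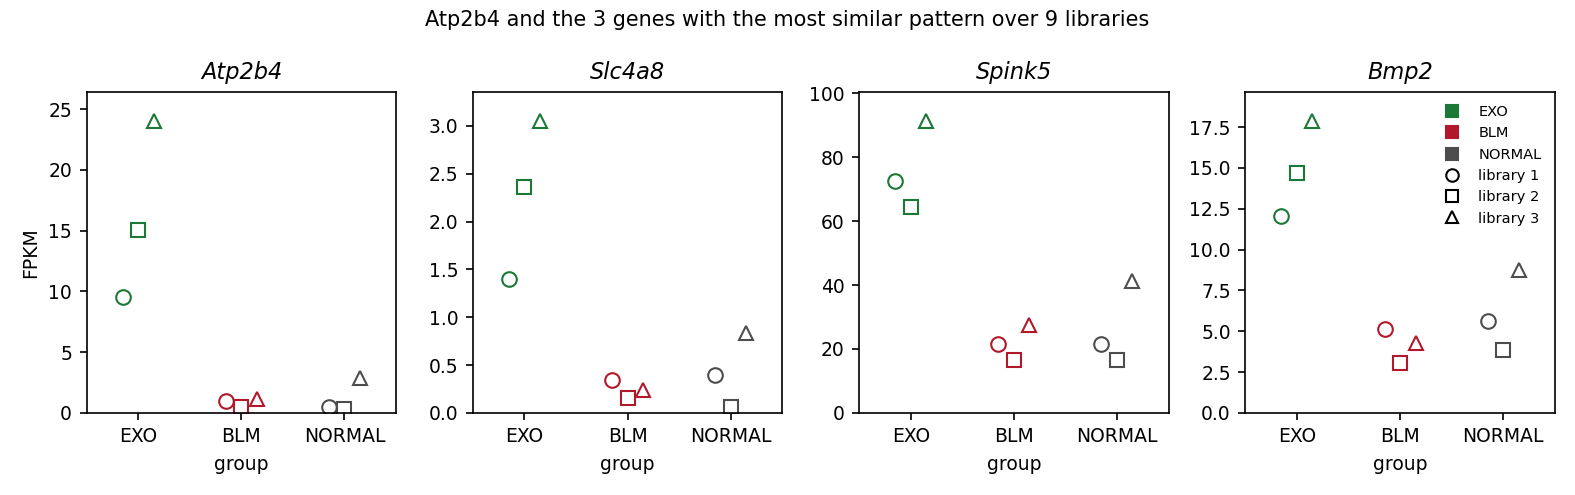
FPKM of Atp2b4 and the 3 genes with the most similar pattern, Slc4a8, Spink5 and Bmp2, by group from EXO to NORMAL, each panel on its own linear axis from 0 and with a symbol per library number. In each panel the 3 EXO libraries lie above the 6 others, and NORMAL3 is the highest of those.

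For the other members the nearest genes were Ip6k2, Utp23 and Idh1 for Atp2a2 (r = 0.929 to 0.974), Gm10916, Tcim and Crtap for Atp2a3 (0.953 to 0.959), Grk6, Tmem132a and Gm11585 for Atp2c1 (0.919 to 0.920), Gm14167, Gabrp and Plk2 for Atp2c2 (0.982 to 0.995), and Gm22208, Mtrf1l and Tyw5 for Atp2b1 (0.834 to 0.961). Gabrp, a receptor subunit of glandular epithelia, was at 11.3 FPKM in NORMAL3 where NORMAL1 and NORMAL2 had 1.08 and 0.45, and Plk2 at 16.6 where they had 3.26 and 3.29, so that the likeness to Atp2c2 rested in part on this library. For Atp2b1 the Spearman rho was 0.912 with Gm22208, 0.717 with Mtrf1l and 0.51 with Tyw5, and BLM1 was the highest library of all of these genes. Gm14167 was at 0 FPKM in EXO1, EXO2, BLM2, NORMAL1 and NORMAL2. The genes nearest to each pump were different for every member.

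Other genes of calcium handling, with other P-type ATPases and genes of ER stress, were read from 10 lists of 113 genes, of which 80 were tested. By limma with Benjamini-Hochberg adjustment over all genes, 0 of 80 passed in any of the 3 comparisons, with or without the block. At an unadjusted p under 0.05 there were 5 for EXO against BLM, 4 for EXO against NORMAL and 13 for BLM against NORMAL, that is of 80 genes each, where 6.84%, 2.33% and 7.37% of all 14254 genes had one in the same comparisons. Most of the 13 (Casq1, Jph2, Mrln, Srl, Cacna1s, Ryr1, Hrc and Jph1) came from 1 list, that of the sarcoplasmic reticulum of muscle described next. Over all genes, 68.8% were higher in EXO than in BLM, 67.0% in EXO than in NORMAL and 47.3% in BLM than in NORMAL, which is the background of the counts of higher genes in each list. The smallest adjusted p was 0.401 for EXO against BLM (0.0659 with the block), 0.997 for EXO against NORMAL (0.505) and 0.58 for BLM against NORMAL (0.128).

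In the list of SERCA regulators and the sarcoplasmic reticulum of muscle, the transcripts of 13 of 13 tested genes were higher in EXO than in BLM. Their median log2 difference was 1.02 beside 0.22 over all genes. In BLM against NORMAL 13 of 13 were lower (median -1.57 beside -0.03), and in EXO against NORMAL 10 of 13 were lower (median -0.55 beside 0.17). None of these genes passed the test. In fits added after seeing the data, the count for BLM against NORMAL without NORMAL3 was still 13 of 13 lower (median -2.36 beside 0.14 over all genes), that for EXO against BLM without EXO1 was still 13 of 13 higher with a median of only 0.40 beside 0.26 over all genes, and that for EXO against NORMAL was 12 of 13 lower with either of these libraries left out. Casq1, which binds calcium inside the reticulum, averaged 306 ± 273 FPKM in EXO, 134 ± 67.1 in BLM and 650 ± 488 in NORMAL, with EXO1 (615) far above EXO2 and EXO3 (102 and 200.03) and NORMAL3 (131) inside the range of BLM. Hrc, a calcium-binding protein of the same store, averaged 91.9 ± 77.9, 36.0 ± 12.9 and 136 ± 85.4 FPKM in EXO, BLM and NORMAL, and Srl 60.8 ± 51.1, 21.9 ± 5.99 and 88.4 ± 64.4 FPKM (SD, n = 3 each). The fast muscle markers given above had the same order of group means, and the part of muscle content in this list was not tested.

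Of the named partners of the PMCA pumps, none had every EXO library above both other groups, as Atp2b4 did. Bsg, whose protein basigin forms a complex with PMCA pumps, had 128 to 237 FPKM in EXO, 70.1 to 120 in BLM and 104 to 288 in NORMAL, so that EXO was above BLM in all libraries and overlapped NORMAL. Calm2, 1 of 3 genes for calmodulin, had 148 to 281 FPKM in EXO, 101 to 227 in BLM and 118 to 236 in NORMAL. Of the 5 genes of this list, 4 were higher in EXO than in BLM, 2 in EXO than in NORMAL and 0 in BLM than in NORMAL, and none passed.

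For other routes by which calcium leaves or enters the cytosol, no gene passed the test either. Of the sodium-calcium exchangers 3 of 9 genes were tested, and the highest was Slc8b1, the exchanger of mitochondria, at 7.46 to 9.24 FPKM in EXO, 2.55 to 8.11 in BLM and 2.81 to 8.67 in NORMAL. Of the calcium release channels of the ER 3 of 6 were tested, all 3 higher in EXO than in BLM and than in NORMAL without passing, led by the inositol trisphosphate receptor Itpr3 at 19.5 to 40.7 FPKM in EXO, 5.05 to 17.7 in BLM and 4.09 to 34.1 in NORMAL. Of the store-operated entry genes 6 of 7 were higher in EXO than in BLM and 2 of 7 in EXO than in NORMAL, and Orai1, a pore of that entry, had 7.73 to 17.2 FPKM in EXO, 5.81 to 8.26 in BLM and 9.62 to 18.8 in NORMAL. Plasma membrane calcium channels had 7 of 15 genes tested, 3 of them higher in EXO than in BLM, with Trpv4 highest at 5.22 to 8.11 FPKM in EXO, 7.28 to 15.9 in BLM and 1.3 to 11.4 in NORMAL. The values of these 4 named genes overlapped between groups, except that Itpr3 was higher in every EXO than in every BLM library and Orai1 lower in every BLM than in every NORMAL library.

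Genes of proteins that hold calcium in the ER and Golgi lay on both sides of 0, with 8 of 13 higher in EXO than in BLM, 6 of 13 in EXO than in NORMAL and 4 of 13 in BLM than in NORMAL. Calr, the ER calcium buffer calreticulin, averaged 68.3 ± 21.4 FPKM in EXO, 64.3 ± 39.1 in BLM and 84.2 ± 26.7 in NORMAL (SD, n = 3 each). The mitochondrial uptake genes (7 of 7 tested) had 4 higher in EXO than in BLM, and the ER stress genes (8 of 8 tested) also 4. Atf4, a transcription factor of that stress response, had 78.4 to 106 FPKM in EXO, 76.5 to 145 in BLM and 100 to 147 in NORMAL. Of 28 other P-type ATPases 14 were tested, 10 of them higher in EXO than in BLM, 12 in EXO than in NORMAL and 9 in BLM than in NORMAL, none passing.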

How the data were processed

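Poly(A) RNA of mouse skin was made into dUTP-stranded libraries and sequenced in pairs. Per the submitters' processing notes, the authors used cutadapt, HISAT2 2.0.4, the mm9 build and StringTie 1.3.4d, and deposited 1 table of FPKM per gene. From it, genes with 1 FPKM or more in at least 3 of 9 libraries were fitted on log2(FPKM + 1) with limma 3.58.1 in R 4.3.3 (3 group means, trended prior), with Benjamini-Hochberg adjustment over all 14254 genes and a threshold of 0.05. The members and gene lists were chosen with earlier results of these data known. All members were named, for each tested member its 3 most correlated genes, and from each list up to 3 genes of highest mean FPKM. A few of these genes are not reported here. Same-numbered libraries deviated from their group means together (r = 0.173 to 0.679 over 9 pairs). Other pairs had r = -0.547 to 0.203 over 18, in part by construction, since deviations cancel within a group. The numbers 1 and 2 come from titles, and 3 was assigned to the titles without a number. A fit with the number as a block was set beside, though whether the numbers pair libraries is not stated. Alternatives were other scalings, pseudocounts, filters, fits and libraries left out. On data simulated for BLM against NORMAL with 14254 genes, 2% of genes changed by 1 log2 unit, 39.6% by 2, 85.6% by 3 and 97.2% by 4 were called. The simulation planted a fixed number of changed genes and drew noise independently for each library. The real libraries deviated together, so these shares may not hold for them. Steps between low FPKM values gave about 12800000 to 29400000 fragments per library, with the step itself uncertain, which puts about 646 to 1969 fragments on the Atp2b4 coding length in EXO, 21 to 85 in BLM and 16 to 241 in NORMAL. Sequences and coordinates came from GRCm38 with GENCODE M21, where 99.56% of gene identifiers were found.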

Additional observations from a re-analysis of the deposited data

How the results depend on the processing

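With 3 libraries a group, limma calls were few, and the counts for EXO against BLM and BLM against NORMAL moved with most choices while that for EXO against NORMAL stayed at 0 in 18 of 20. For EXO against BLM the count of genes called was 2, and 35 with median-ratio scaling, 36 with quantile normalization, 97 with the 6 libraries compared alone and 11 with the replicate block, but 0 with a filter of 5 FPKM, no filter, a pseudocount of 0.1 or without the libraries numbered 2. For BLM against NORMAL it was 2, and 74 with median-ratio scaling, 58 with quantile normalization and 60 with the block, but 0 with those filters, that pseudocount, the 6 libraries alone or without the libraries numbered 2. For EXO against NORMAL it was 0, and 1 with the pseudocount of 0.1 and 3 with the block. Leaving out each library in turn gave 0 to 87, 0 to 131 and 0 calls in these comparisons, with 87 and 131 reached without NORMAL3. The cause was not tested. The block changed no other member's call than that of Atp2b4. The Atp2b4 differences of EXO kept their sign in all 40 fits, the largest moves being 4.06 and 4.07 with a pseudocount of 0.1, while for the other 5 members 25 of 273 fitted differences had the other sign from that in the text, none of them called. Filters, the trended prior, the block and leaving out third-group libraries cannot change a difference of group means, so in those fits the sign was fixed.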
